A study of Mus musculus with 8 samples.

Results

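Chemokines are small secreted proteins that bind G protein-coupled receptors and guide the movement of leukocytes, and they are grouped as CC, CXC, CX3C and XC ligands by the spacing of conserved cysteines near the amino end. Atypical receptors bind the same ligands but take them up without classical G protein signalling, which shapes the gradients. In the heart, resident macrophages, endothelial cells and fibroblasts make several of these ligands at rest, and injury brings in monocytes through Ccr2 and neutrophils through Cxcr2. The gene family was followed here in left ventricles that overexpress a microRNA. Its members are the rows of the deposited array table whose platform gene symbol begins with Ccl, Cxcl, Ccr or Cxcr followed directly by a digit, or with Ackr, Cx3cl, Cx3cr, Xcl or Xcr, which gave 61 of 22206 rows and 60 gene symbols. The rule itself uses symbols and no values, but it was chosen with earlier results of these data known.

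The hearts came from 4 mice with cardiac-specific overexpression of miR-100 and from 4 wild type mice. All 8 mice were untreated males of the strain C57/BL6J aged 8 weeks, and left ventricle was taken from each. The sources used here do not give the promoter that drives the transgene, the number of founder lines or the litters. The level of miR-100 itself was not checked on these arrays. The design counts 4 mice a group but the labels do not say how they are related, and the p-values reflect the scatter among these 8 samples alone. Values are log2 signals per transcript cluster, a group of probes for a single transcribed region, and a difference is the miR-100 overexpressing mean minus the wild type mean with its moderated standard error (SE) from limma.

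The microRNA labelled as overexpressed is shown first, since it is the agent that separates the groups. The RefSeq sequence of its main mature strand (GRCm38.p6, chr9:41531437-41531458, plus strand) is given with the seed, bases 2 to 8, in capitals.
mmu-miR-100-5p: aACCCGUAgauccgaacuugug
A search of messenger RNA ends for seed matches was not made here, because transcript sequences were not used.

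Heart muscle markers were bright, as the labelled tissue requires. The 7 markers, among them Myh6 and Tnnt2 of the sarcomere, had row means at or above percentile 98.5 of all rows. Array correlations over all rows were between 0.988 and 0.993. Wild type replicate 2 stood apart from the rest, with a first principal component score of -38.2 against 8.96 to 30.8 in the miR-100 overexpressing arrays and -13.0 to -3.49 in the other wild type arrays, so values without it are given for the myeloid ligands Ccl9 and Ccl6, for the macrophage markers beside them and for the counts of members. Markers of blood-borne cells were dim: 7 of 8 neutrophil rows, 5 of 7 T cell rows, 5 of 5 B cell rows and 6 of 6 NK cell rows lay in the lower 50% of row means. In whole ventricle RNA, fewer cells of a type and less RNA per cell cannot be told apart.

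No chemokine or chemokine receptor passed the test. Among all 22206 rows, 31 rows (0.14%) reached a limma p under 0.05 after Benjamini-Hochberg adjustment over all of them, 0.0946% higher and 0.045% lower in the miR-100 overexpressing hearts. Of the 61 members 0 did, and their lowest adjusted p was 0.328. At an unadjusted p under 0.05 there were 4 members, which is 6.56% of the 61, against 7.73% of all rows. Of those, 3 were higher in the miR-100 overexpressing hearts (Cxcl14, Ccl7 and Cxcr2), where 3.55% of all rows were higher at that p, and 1 was lower (Ccl9), where 4.17% of all rows were lower. The groups did not overlap in 2 members, Cxcl14 and Cxcl1, or 3.28% against 4.54% of all rows. Both were higher in the miR-100 overexpressing hearts, where 2.21% of all rows lay without overlap, and 0 members were lower without overlap, against 2.33% of all rows. Counted in either direction, both shares were below those of all rows, while the shares of higher members, on counts of 3 and 2, were above them. Without wild type replicate 2, the array with the lowest first component score, 0 members passed and 4 had an unadjusted p under 0.05, where 8.22% of all rows had one. In that fit 4 members did not overlap (Cxcl14, Cxcl1, Ccl9 and Ccl6), where 8.18% of all rows did not. Leaving out wild type replicate 1 gave 2 members at an unadjusted p under 0.05. Without miR-100 overexpressing replicate 2, the array with the highest first component score, there were 3 such members and 2 without overlap. Leaving out miR-100 overexpressing replicate 4 gave 6 such members and 4 without overlap, and leaving out wild type replicate 4 gave 6 without overlap. For the fits without wild type replicate 1 or 4, or without miR-100 overexpressing replicate 2 or 4, the shares of all rows were not counted. Whether these counts lie above or below such shares is therefore not known. Smaller groups overlap less often by construction. The differences of 25 members were above 0 and those of 36 below, with a median of -0.03 on the log2 scale, against -0.015 over all rows. Leaving out 1 array moved 56 of the 61 differences by over 1.5 times at least once, and 30 of those changed sign. The rule is relative to the full difference, so a difference near 0 meets it after a small shift. The median absolute difference of the members was 0.125, and the share of all rows that meet the rule was not counted.

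The intervals describe the difference in array signal of each row taken singly, and they do not hold jointly over the 61 rows. In 58 of the 61 rows the 95% confidence interval of the difference lay wholly between -1 and 1 on the log2 scale. That is within a 2-fold change of signal in either direction, and the exceptions were Ccl9, Ccl12 and Cxcl14. The median half-width of the interval was 0.40, against 0.37 over all rows, and only 22 rows had intervals within 0.5 on either side of 0. Members varied slightly more between arrays of a group than the table did, with a median within-group SD of 0.288 against 0.246 over all rows. The family was also dim: 43 of 61 rows lay in the lower 50% of row means and 20 in the lowest 25%. How far differences in signal match differences in RNA in such dim rows was not tested. Probes differ in affinity, so the order of levels between genes cannot be read from these signals.

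**Figure D1:**
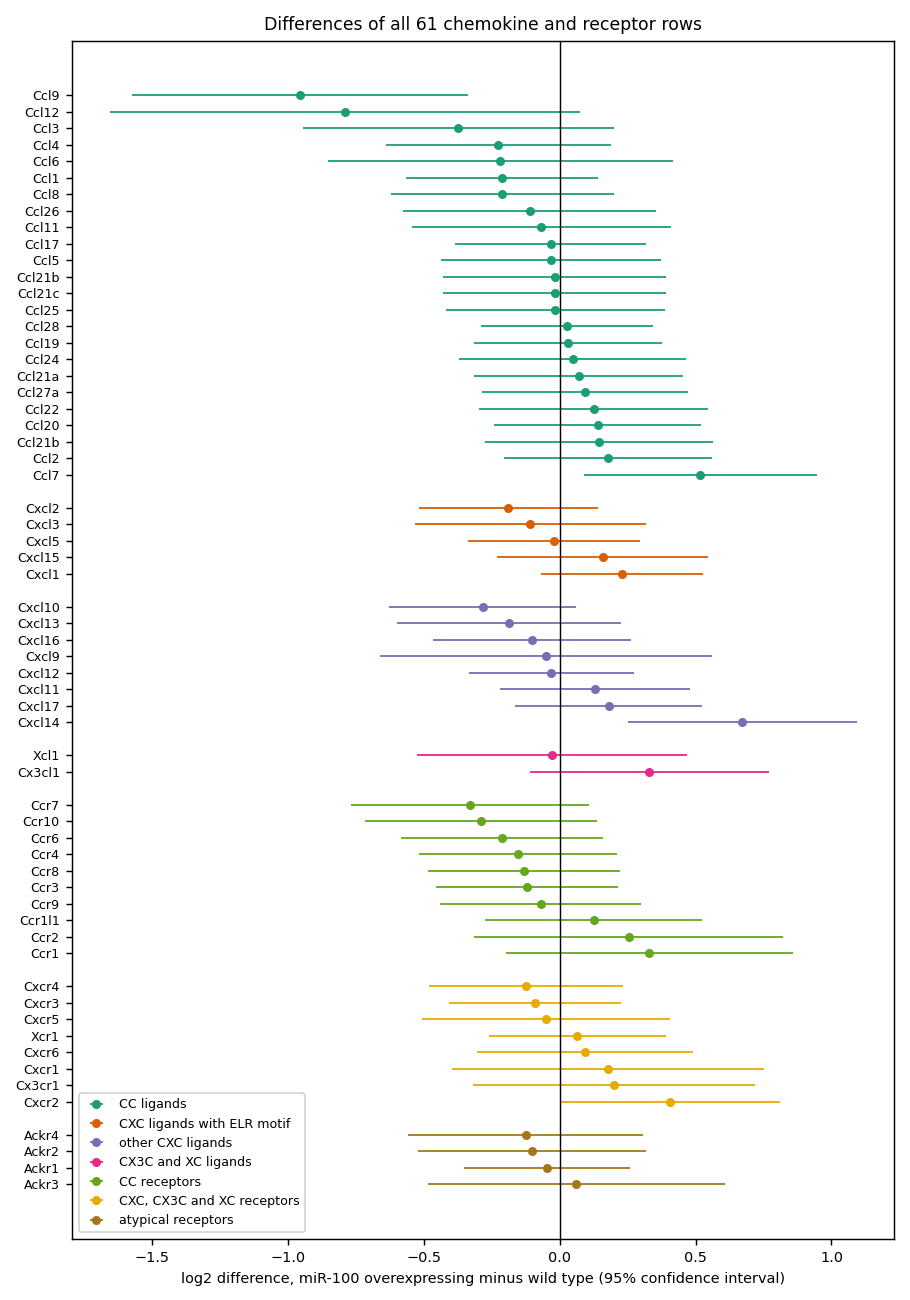
The log2 difference of each of the 61 rows, miR-100 overexpressing minus wild type, with its 95% confidence interval from limma (4 arrays a group), by role and ordered within each role. Most intervals cross 0, Ccl9 lies farthest to the left at -0.96 and Cxcl14 farthest to the right at 0.67.

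Cxcl14 is a CXC ligand that is made by epithelial and stromal cells and attracts monocytes and immature dendritic cells. Its log2 signal was 8.69, 8.75, 8.42 and 8.46 in the miR-100 overexpressing hearts, against 7.38, 7.83, 8.09 and 8.33 in the wild type hearts. All 4 miR-100 overexpressing values lay above all 4 wild type values, although the closest values of the groups differed by little. The difference was 0.67 (SE 0.195, unadjusted p = 0.00432, adjusted p = 0.328 in limma), a 1.59-fold higher mean, and it did not pass. The miR-100 overexpressing values had an SD of 0.164 and the more scattered wild type values an SD of 0.407 (n = 4 each).

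Ccl9 is a CC ligand of mouse macrophages and other myeloid cells that signals through Ccr1. Its log2 signal was 9.22, 8.94, 9.25 and 8.97 in the miR-100 overexpressing hearts, against 10.02, 9.06, 10.30 and 10.82 in the wild type hearts. The groups overlapped only through wild type replicate 2, which lay among the miR-100 overexpressing values. The difference was -0.96 (SE 0.286, unadjusted p = 0.00525, adjusted p = 0.344 in limma). Without wild type replicate 2 it was -1.29 (SE 0.196) with a limma adjusted p of 0.0533, and without wild type replicate 4 it was -0.70 (SE 0.254) with an adjusted p of 0.478, so its size depended on single wild type arrays.

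Ccl7, a CC ligand that attracts monocytes through Ccr2, had a log2 signal of 5.27, 5.53, 5.19 and 5.75 in the miR-100 overexpressing hearts, against 4.74, 5.01, 4.53 and 5.39 in the wild type hearts. The highest wild type value exceeded 2 of the miR-100 overexpressing values. The difference was 0.52 (SE 0.198, unadjusted p = 0.0215, adjusted p = 0.521 in limma).

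Cxcr2, the neutrophil receptor for CXC ligands that carry the ELR motif, had a log2 signal of 4.96, 4.92, 5.23 and 4.63 in the miR-100 overexpressing hearts, against 4.48, 4.41, 4.99 and 4.24 in the wild type hearts. Wild type replicate 3 lay within the miR-100 overexpressing values. The difference was 0.41 (SE 0.187, unadjusted p = 0.0493, adjusted p = 0.646 in limma), and it was 0.56 without wild type replicate 3 and 0.31 without miR-100 overexpressing replicate 3. The 8 neutrophil marker rows had a median difference of -0.07, with 3 above 0 and 5 below. The lowest difference was that of S100a8, a granulocyte protein, at -0.37 (limma unadjusted p = 0.0213, adjusted p = 0.519), without overlap between the groups. It was the only neutrophil row under an unadjusted p of 0.05 and the only 1 without overlap, or 12.5% of the 8. Of all rows, 4.17% were lower at that p and 2.33% lower without overlap. The S100a8 row was dim, at percentile 4.44 of row means, and the other neutrophil rows ran from -0.16 for Mpo to 0.235 for Ngp. The part of neutrophil content in the Cxcr2 values was not tested.

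**Figure D2:**
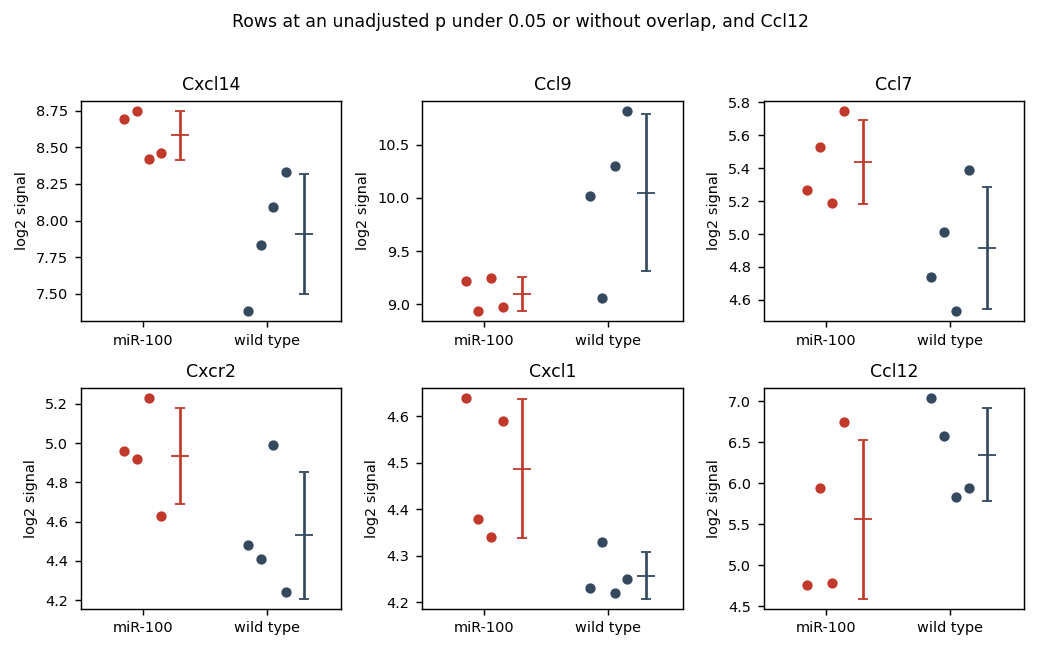
Log2 signal on each array (points) with the group mean and SD beside them, for the members at an unadjusted p under 0.05, for Cxcl1 and for Ccl12; each panel has its own axis, which does not start at 0. Cxcl14 and Cxcl1 have no overlap between the groups, while the miR-100 overexpressing values of Ccl12 span 4.76 to 6.75.

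Among the CC ligands, 24 rows of 23 genes ran from -0.96 for Ccl9 to 0.52 for Ccl7, with 10 above 0 and 14 below. Ccl12, a mouse ligand of Ccr2, had the next lowest difference and is named for that size after its values were seen. It was at 4.76, 5.94, 4.78 and 6.75 in the miR-100 overexpressing hearts, against 7.04, 6.58, 5.83 and 5.94 in the wild type hearts. Replicate 4 of the miR-100 overexpressing group lay above 3 of the wild type values while replicates 1 and 3 lay below all of them, and the difference of -0.79 (SE 0.400, limma adjusted p = 0.689) did not pass. When replicate 4 of the miR-100 overexpressing group was left out it was -1.19, and when replicate 1 of that group was left out it was -0.52.

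The CC ligand genes stand in runs on the chromosome, and neighbours did not all differ in the same direction. In the run Ccl2, Ccl7, Ccl11, Ccl12, Ccl8 and Ccl1, the differences were above 0 for Ccl2 (0.18) and Ccl7 (0.52) and below 0 for the other 4, from -0.79 for Ccl12 to -0.07 for the eosinophil attractant Ccl11. In the run Ccl5, Ccl9, Ccl6, Ccl3 and Ccl4, all 5 differences were below 0, from -0.96 for Ccl9 to -0.03 for Ccl5, and the intervals of the 4 genes other than Ccl9 included 0. Gene order is that of RefSeq protein-coding genes, and the arrays give no value for distance.

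**Figure D3:**
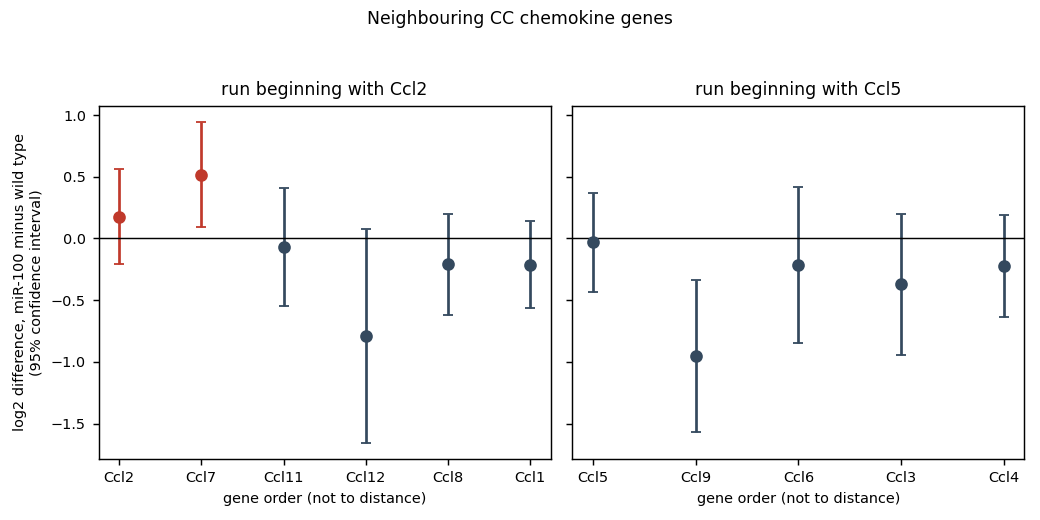
Log2 differences with 95% confidence intervals for neighbouring CC ligand genes in RefSeq gene order, not to distance; red points are above 0 and dark points below. The run that begins with Ccl2 holds both signs, with Ccl7 at 0.52 and Ccl12 at -0.79, and the run that begins with Ccl5 lies below 0 throughout.

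Ccl6, the neighbour of Ccl9 and likewise a myeloid ligand, was at 8.02, 7.76, 8.49 and 8.21 in the miR-100 overexpressing hearts, against 8.64, 7.27, 8.83 and 8.61 in the wild type hearts. Wild type replicate 2 was again the low array, and the groups overlapped only through it. The difference was -0.22 (SE 0.293, limma adjusted p = 0.923), and without that array it was -0.57 (SE 0.183, limma adjusted p = 0.416). Without wild type replicate 3 it was -0.05. The inflammatory ligands Ccl3 and Ccl4, which recruit monocytes and T cells, differed by -0.37 (SE 0.265) and -0.23 (SE 0.192) and did not pass.

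Macrophage markers were set beside these myeloid ligands. Of 13 rows, 4 differed by more than 0 and 9 by less, with a median of -0.14, and the log2 of their summed signal ran from 12.48 to 12.69 in the miR-100 overexpressing hearts and from 12.39 to 12.99 in the wild type hearts. The sums overlapped only through wild type replicate 2, since the other wild type arrays lay between 12.74 and 12.99. Wild type replicates 2 and 4, the lowest and the highest for Ccl9, were also the lowest and the highest in this sum, at 12.39 and 12.99. Among the single markers, wild type replicate 2 was the lowest of its group in 8 of the 13 rows and replicate 4 the highest in 7. The 8 include Adgre1, in which wild type replicates 2 and 4 tied as lowest at 7.08. Lyve1, a hyaluronan receptor of resident macrophages and lymphatic vessels, was at 8.89, 8.57, 9.21 and 9.04 in the miR-100 overexpressing hearts, against 9.63, 9.05, 9.36 and 10.21 in the wild type hearts. Its difference was -0.64 (SE 0.229, limma adjusted p = 0.469), and without wild type replicate 2, the only array through which the groups overlapped, it was -0.81 (SE 0.220, limma adjusted p = 0.331). Timd4, a phosphatidylserine receptor of resident macrophages, was at 5.92, 5.50, 5.24 and 5.86 in the miR-100 overexpressing hearts, against 6.20, 6.42, 6.31 and 5.75 in the wild type hearts. Wild type replicate 2 was the highest and replicate 4 the lowest of its group for Timd4, the opposite of their order for Ccl9, and the difference was -0.54 (SE 0.194, limma adjusted p = 0.468). These markers are named because they were the 2 at an unadjusted p under 0.05, which was seen from their values, and the other 11 differed by -0.26 to 0.21. The 2 make up 15.4% of the 13 rows, against 7.73% of all rows at that p in limma. Both were lower, where 4.17% of all rows were lower at that p. Without wild type replicate 2, 12 of the 13 rows had differences below 0, with a median of -0.15, and 0 passed the adjusted threshold. The share of all rows below 0 was not counted in that fit, and with all 8 arrays 11790 of 22206 rows were below 0. The part of macrophage content in the values of Ccl9 and Ccl6 was not tested.

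**Figure D4:**
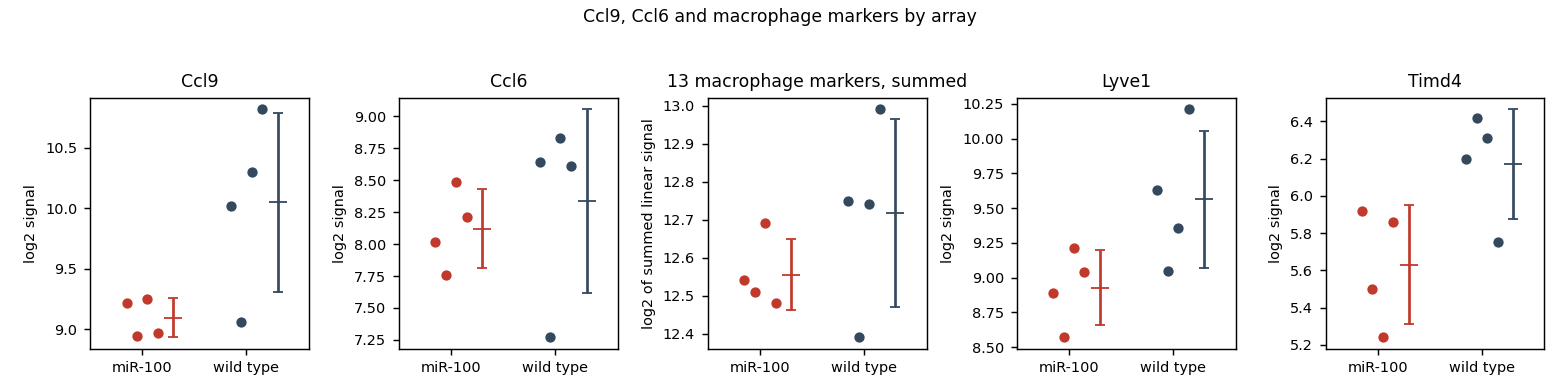
Log2 signal on each array for Ccl9, Ccl6, Lyve1 and Timd4, and the log2 of the summed linear signal of 13 macrophage markers, with group means and SDs; each panel has its own axis, which does not start at 0. The low wild type array of Ccl9 (9.06) is also the lowest for Ccl6 (7.27) and for the marker sum (12.39).

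The ligands Ccl21a, Ccl21b, Ccl21c and Ccl19 draw T cells and dendritic cells through Ccr7, and Ccl21 is made by lymphatic endothelium. The rows of Ccl21c and of 1 Ccl21b cluster held the same value on all 8 arrays, so these near-identical copies cannot be told apart and are uncertain. Ccl21a was at 10.16, 10.22, 10.05 and 9.62 in the miR-100 overexpressing hearts, against 10.22, 9.68, 10.07 and 9.80 in the wild type hearts, a difference of 0.07 (95% confidence interval -0.31 to 0.45). Ccl19 was at 3.94, 4.01, 4.03 and 4.31 in the miR-100 overexpressing hearts, against 3.73, 4.30, 4.12 and 4.01 in the wild type hearts, and these values interleaved. Ccr7 was at 6.64, 6.56, 6.49 and 7.34 in the miR-100 overexpressing hearts, against 6.96, 7.46, 7.01 and 6.92 in the wild type hearts. Apart from miR-100 overexpressing replicate 4, the Ccr7 values of that group lay below all wild type values, and the difference of -0.33 (SE 0.203, limma adjusted p = 0.757) did not pass.

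Ccl2, the main monocyte attractant, and its receptor Ccr2 mark the recruitment of monocytes to an injured heart. Ccl2 was at 4.84, 5.40, 5.47 and 5.37 in the miR-100 overexpressing hearts, against 5.35, 4.99, 5.19 and 4.84 in the wild type hearts. Ccr2 was at 4.93, 5.52, 4.05 and 4.34 in the miR-100 overexpressing hearts, against 4.39, 4.40, 4.29 and 4.74 in the wild type hearts. Both pairs of groups overlapped, with differences of 0.18 (interval -0.21 to 0.56) for Ccl2 and 0.26 (interval -0.31 to 0.82) for Ccr2. Over the fits that left out 1 array each, the Ccl2 difference ran from 0.09 (wild type replicate 4 left out) to 0.32 (miR-100 overexpressing replicate 1 left out). The Ccr2 difference was -0.02 without miR-100 overexpressing replicate 2. Monocyte marker rows had a median difference of -0.08 over 7 rows, with 0 at an unadjusted p under 0.05.

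Ccl5, a ligand of T cells and platelets, was at 4.12, 3.48, 3.58 and 3.45 in the miR-100 overexpressing hearts, against 3.74, 3.99, 3.67 and 3.36 in the wild type hearts, and it lay at percentile 12.3 of row means. Its values interleaved between the groups. The remaining CC ligands, among them the eosinophil ligand Ccl24 (0.05), the T cell ligands Ccl17 (-0.03) and Ccl22 (0.13), the mucosal and skin ligands Ccl25 (-0.02), Ccl27a (0.10) and Ccl28 (0.03), and Ccl20 (0.14), Ccl1 (-0.21), Ccl8 (-0.21) and Ccl26 (-0.11), all had intervals that included 0.

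The CXC ligands with an ELR motif attract neutrophils through Cxcr2, and 5 rows ran from -0.19 for Cxcl2 to 0.23 for Cxcl1. Cxcl1 was at 4.64, 4.38, 4.34 and 4.59 in the miR-100 overexpressing hearts, against 4.23, 4.33, 4.22 and 4.25 in the wild type hearts. The groups did not overlap, but their nearest values differed only in the second decimal, and the difference of 0.23 (SE 0.138, limma adjusted p = 0.748) did not pass. Cxcl2 was at 4.28, 4.00, 4.26 and 3.79 in the miR-100 overexpressing hearts, against 4.29, 4.34, 4.31 and 4.14 in the wild type hearts. Cxcl5 was at 3.66, 3.32, 3.26 and 3.20 in the miR-100 overexpressing hearts, against 3.31, 3.44, 3.40 and 3.37 in the wild type hearts, at percentile 5.43 of row means. Cxcl1 and Cxcl2 therefore had differences of opposite sign, neither of which passed.

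Promoters of this group are shown because Cxcl1, Cxcl2 and Cxcl3 are known targets of NF-kappaB and carry its motif at similar places. The lines below are RefSeq windows of 70 bases upstream of each gene start (GRCm38.p6, plus strand), at chr5:90891135-90891204, chr5:90903789-90903858 and chr5:90785991-90786060 in the order printed, with the matches to the NF-kappaB consensus motif in capitals.
Cxcl1: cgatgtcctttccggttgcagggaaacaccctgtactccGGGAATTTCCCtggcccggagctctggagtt
Cxcl2: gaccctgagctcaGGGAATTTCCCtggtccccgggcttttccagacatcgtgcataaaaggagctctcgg
Cxcl3: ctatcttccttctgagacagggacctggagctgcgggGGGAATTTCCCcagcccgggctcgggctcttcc
Each capital stretch holds 2 overlapping matches, since both strands were searched. RefSeq windows of 300 bases were found for 45 member genes, with 49 windows in all, and 12 of the 49 (24.5%) held the motif, against 8.46% of 32851 windows of all genes. Members with the motif included Cxcl10, Ccl20 and Ccl9 beside those printed. A match describes letters only. Cxcl1, Cxcl2 and Cxcl3 had differences of 0.23, -0.19 and -0.11, none of which passed.

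The promoters of Cxcl14 and Ccl9 are printed because these members had the lowest unadjusted p, from 250 bases before to 50 after the gene start (RefSeq, GRCm38.p6). Ccl9 lies on the minus strand at chr11:83578587-83578886 with an NF-kappaB match in capitals, and Cxcl14 on the minus strand at chr13:56296502-56296801 with a match to the core of the interferon-stimulated response element (GAAA, any 2 bases, then GAAA) in capitals.
Ccl9: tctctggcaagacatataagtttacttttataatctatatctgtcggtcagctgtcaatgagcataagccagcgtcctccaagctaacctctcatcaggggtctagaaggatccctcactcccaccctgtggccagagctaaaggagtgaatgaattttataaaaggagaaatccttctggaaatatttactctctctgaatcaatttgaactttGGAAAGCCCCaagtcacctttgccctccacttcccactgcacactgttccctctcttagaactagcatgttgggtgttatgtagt
Cxcl14: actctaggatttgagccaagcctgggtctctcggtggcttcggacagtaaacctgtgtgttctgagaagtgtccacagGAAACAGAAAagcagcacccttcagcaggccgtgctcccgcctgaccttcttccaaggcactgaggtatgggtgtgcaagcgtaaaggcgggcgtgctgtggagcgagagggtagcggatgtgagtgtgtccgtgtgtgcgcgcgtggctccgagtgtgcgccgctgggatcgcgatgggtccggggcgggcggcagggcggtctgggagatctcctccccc
The response element core was found on either strand in 3 of the 49 member windows (6.12%), those of Ccl19, Cxcl10 and Cxcl14, against 3.44% of all windows.

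The other CXC ligands comprised 8 rows, from -0.28 for Cxcl10 to 0.67 for Cxcl14. Cxcl12 holds progenitors and leukocytes in tissues through Cxcr4 and is cleared by Ackr3. Cxcl12 was at 11.13, 11.25, 11.12 and 11.01 in the miR-100 overexpressing hearts, against 11.15, 10.95, 11.24 and 11.29 in the wild type hearts. It was among the steadiest members, and its difference of -0.03 had an interval from -0.33 to 0.27. Cxcr4 was at 6.88, 7.05, 7.58 and 7.06 in the miR-100 overexpressing hearts, against 7.32, 7.34, 7.18 and 7.22 in the wild type hearts. Here 3 of the 4 miR-100 overexpressing values lay below all wild type values and replicate 3 lay above them, which left a difference of -0.12 (SE 0.165, limma adjusted p = 0.923). Ackr3 was at 9.01, 10.06, 9.33 and 10.13 in the miR-100 overexpressing hearts, against 9.89, 9.10, 9.72 and 9.57 in the wild type hearts, and its difference of 0.06 changed sign when single arrays were left out.

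Cxcl9 and Cxcl10 are interferon-induced ligands that attract activated T cells through Cxcr3. Cxcl9 was at 6.94, 7.74, 6.52 and 6.85 in the miR-100 overexpressing hearts, against 7.70, 6.42, 6.89 and 7.24 in the wild type hearts, a wide spread in both groups. Cxcl10 was at 3.13, 3.49, 3.41 and 3.30 in the miR-100 overexpressing hearts, against 3.68, 3.91, 3.53 and 3.34 in the wild type hearts. Cxcl10 was dim, at percentile 7.41 of row means, and its difference of -0.28 (SE 0.160, limma adjusted p = 0.722) did not pass. Cxcr3 was at 5.45, 5.70, 5.87 and 5.71 in the miR-100 overexpressing hearts, against 5.94, 5.65, 5.73 and 5.77 in the wild type hearts, a difference of -0.09 (interval -0.41 to 0.23). Cxcl11, which the RefSeq table of this mouse strain lists as a transcribed pseudogene, differed by 0.13 at percentile 5.41 of row means.

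Cxcl16, a membrane-bound ligand and scavenger receptor, was at 8.34, 8.71, 8.60 and 8.87 in the miR-100 overexpressing hearts, against 8.95, 8.77, 8.81 and 8.39 in the wild type hearts. Its receptor Cxcr6 was at 4.26, 4.32, 3.85 and 3.87 in the miR-100 overexpressing hearts, against 3.96, 4.11, 4.29 and 3.57 in the wild type hearts. Neither separated the groups, with differences of -0.10 and 0.09. The B cell ligand Cxcl13 differed by -0.19 and its receptor Cxcr5 by -0.05, and the mucosal ligand Cxcl17 differed by 0.18.

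Cx3cl1, a membrane-tethered ligand of endothelium and other cells, was at 4.47, 4.59, 4.50 and 3.86 in the miR-100 overexpressing hearts, against 4.20, 4.00, 4.33 and 3.57 in the wild type hearts. In each group replicate 4 was the low array, and the other miR-100 overexpressing values lay above all wild type values. The difference was 0.33 (SE 0.204, limma adjusted p = 0.762), and it was 0.50 without miR-100 overexpressing replicate 4 (limma adjusted p = 0.61) and 0.18 without wild type replicate 4. Its receptor Cx3cr1, found on monocytes and resident macrophages, was at 4.64, 5.24, 5.08 and 4.67 in the miR-100 overexpressing hearts, against 5.30, 4.80, 4.03 and 4.70 in the wild type hearts, a difference of 0.20 that was -0.03 without wild type replicate 3. Xcl1, a ligand from T and NK cells, and Xcr1, its receptor on dendritic cells, differed by -0.03 and 0.07.

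**Figure D5:**
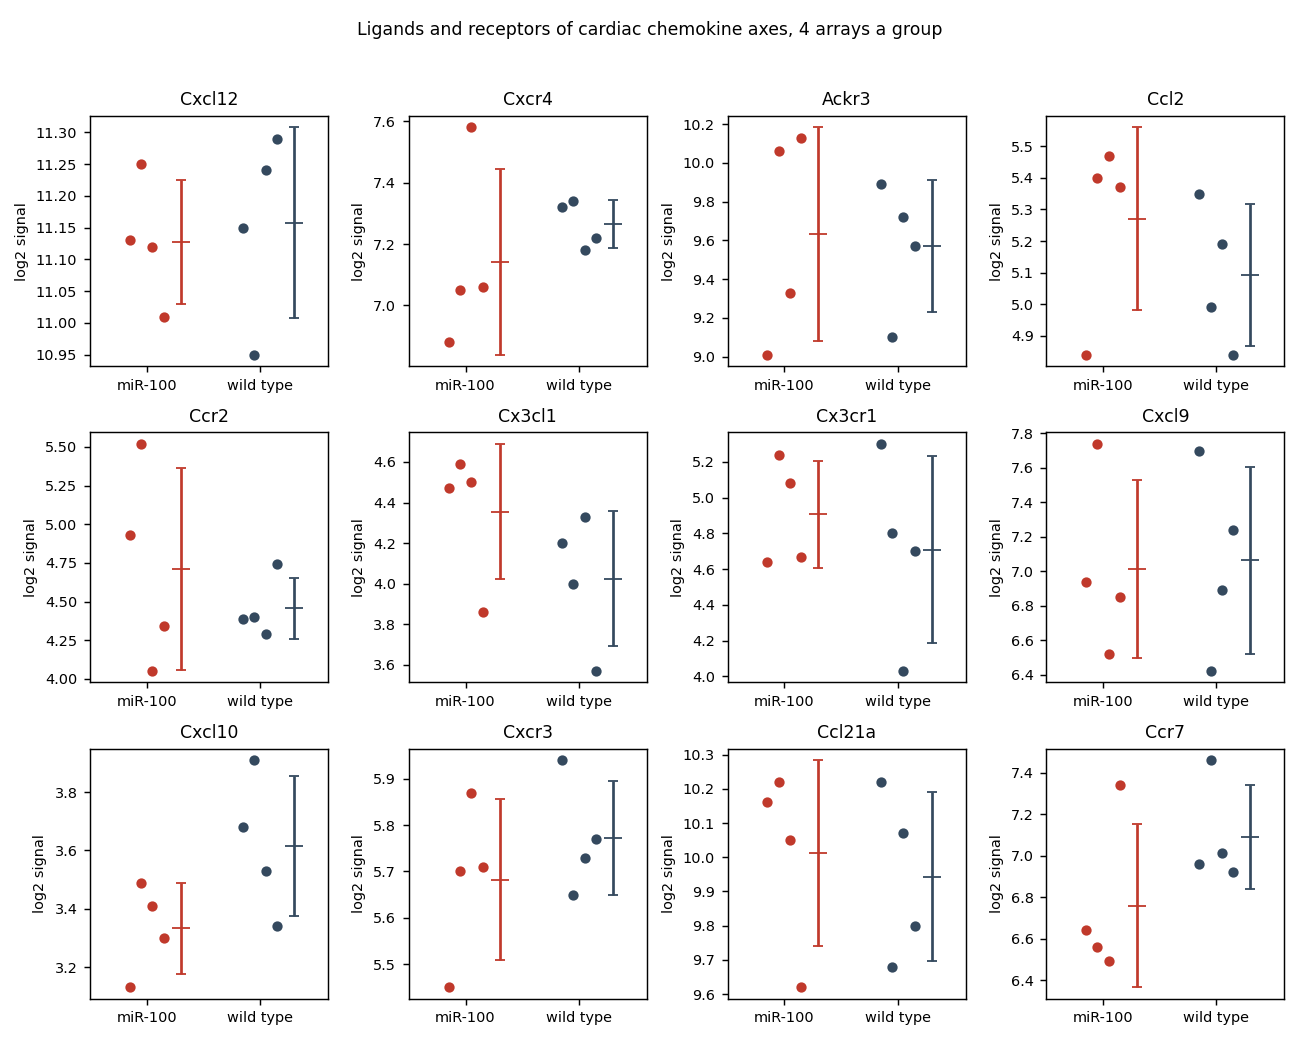
Log2 signal on each array with the group mean and SD for ligands and receptors of cardiac chemokine axes, 4 arrays a group; each panel has its own axis, which does not start at 0. The groups overlap in every panel, and Cxcl12 spans only 10.95 to 11.29 over the 8 arrays.

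The 10 CC receptor rows ran from -0.33 for Ccr7 to 0.33 for Ccr1, with 3 above 0 and 7 below, and 9 of them lay in the lower 50% of row means. In Ccr1, the receptor of Ccl9, a single array stood above all others, since it was at 4.25, 3.93, 4.05 and 5.27 in the miR-100 overexpressing hearts, against 4.08, 4.11, 4.05 and 3.94 in the wild type hearts. Its difference of 0.33 was 0.03 without that array. Ccr10, a skin and mucosal homing receptor, differed by -0.29 and the eosinophil receptor Ccr3 by -0.12, with Ccr4, Ccr6, Ccr8 and Ccr9 between -0.21 and -0.07. The 8 receptors of the CXC, CX3C and XC ligands ran from -0.12 for Cxcr4 to 0.41 for Cxcr2, and Cxcr1 differed by 0.18.

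The 4 atypical receptors ran from -0.13 for Ackr4 to 0.06 for Ackr3. Ackr1, a chemokine-binding protein of venules, was at 3.98, 3.88, 4.00 and 4.10 in the miR-100 overexpressing hearts, against 4.19, 4.12, 4.01 and 3.82 in the wild type hearts. Ackr2, a scavenger of inflammatory CC ligands, was at 5.34, 4.68, 4.98 and 4.90 in the miR-100 overexpressing hearts, against 5.01, 4.66, 5.47 and 5.17 in the wild type hearts. Ackr4, which removes the ligands of Ccr7, was at 5.36, 5.28, 5.13 and 5.45 in the miR-100 overexpressing hearts, against 5.10, 5.46, 6.04 and 5.12 in the wild type hearts. All of these groups overlapped, and the half-widths of their intervals had a median of 0.43.

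Chemokine receptors signal through inhibitory G proteins to phosphoinositide 3-kinase gamma, Rac and integrins, and are switched off by G protein-coupled receptor kinases and arrestins. Of a list of 51 such genes, 43 had a row, and 0 passed the adjusted threshold. At an unadjusted p under 0.05 there were 2, or 4.65%, both higher, against 7.73% of all rows, and the groups did not overlap in 3, or 6.98%, also all higher, against 4.54% of all rows in either direction and 2.21% higher. For higher rows at that unadjusted p the share over all rows was 3.55%. The median difference was 0.07, with 27 above 0 and 16 below. Grk3, a receptor kinase, was at 7.90, 7.97, 7.75 and 7.72 in the miR-100 overexpressing hearts, against 7.44, 7.09, 7.33 and 7.56 in the wild type hearts, a difference of 0.48 (SE 0.149, limma adjusted p = 0.368). The G protein subunit genes Gnb1 and Gnai2, which act downstream of many receptors of heart muscle as well, differed by 0.30 and 0.26 without overlap between the groups (limma adjusted p = 0.638 and 0.708).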

How the data were processed

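Left ventricle RNA of 8 mice was measured on 8 arrays, 4 miR-100 overexpressing and 4 wild type, 1 array per mouse. TriPure was used for RNA extraction and the Affymetrix WT Plus kit for labelling, per the labels' protocols. The authors deposited log2 signals, for which the submitters' processing notes name Transcriptome Analysis Console 4.0. How probes were summarized and arrays normalized, and on which genome build, is not given in the sources used here. Column medians were between 5.70 and 5.74, and the number of arrays limits precision.

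The platform annotation named 19572 of 22206 rows with 1 symbol, 0 with several and 2634 with none. No value was transformed or filtered. A linear model without covariates was fitted to all rows (limma 3.58.1 with empirical Bayes moderation, R 4.3.3), with Benjamini-Hochberg adjustment over the whole table and a threshold of 0.05. The fit was tested before use in 10 simulations with 200 changed rows each. At the adjusted threshold it recovered 5.3% of changes of 0.5 on the log2 scale, 64% of changes of 1 and 98.2% of changes of 2. Most true changes of 0.5 would therefore be missed with this number of arrays. The gene symbols of the rows came from the platform annotation. Gene order and sequences came from RefSeq tables of GRCm38.p6, used with no coordinates of the array. The members and gene lists were chosen with earlier results of these data known. By the naming rule, members at an unadjusted p under 0.05 or without overlap and the best known cardiac axes are given array by array, and others by range. Ccl12, Ccl6 and Ccr1 fall outside that rule and are also given array by array, with their values known. Alternatives were leaving out each array, a replicate block, weights per array, an intensity trend, robust moderation, median centring, quantile normalization, keeping only rows brighter than the 25th or the 50th percentile, keeping only rows with a symbol or the brightest row per symbol, and an adjusted p of 0.1.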

Additional observations from a re-analysis of the deposited data

Results flagged for a closer look

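In 88 rows (the members, related chemokine-binding genes, the named signalling genes and macrophage markers), the 4 values of each group were searched for a single array far from the other 3, and 13 of 176 sets held one. Chance alone marks about 1 in 20 sets, so no single mark carries weight.

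Among ligands, Cxcl3 was low in miR-100 overexpressing replicate 3 (5.16, the others from 5.60), Cxcl15 in replicate 2 (3.87), Ccl24 in replicate 4 (5.16), Cx3cl1 in replicate 4 (3.86) and Ccl2 in replicate 1 (4.84). In the wild type group, Cxcl13 was low in replicate 3 (4.76) and Ccl6 in replicate 2 (7.27, the others from 8.61). Among receptors, Cxcr5 was high in wild type replicate 1 (4.41) and Ccr7 in wild type replicate 2 (7.46). Dpp4, a protease that trims chemokines, was low in wild type replicate 3 (4.65). The macrophage genes C1qa and Adgre1 stood apart in miR-100 overexpressing replicates 4 (8.59) and 1 (7.40).

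Ppbp, a platelet chemokine whose symbol lies outside the family rule, was at 7.94, 4.03, 3.52 and 4.14 in the miR-100 overexpressing hearts, against 3.87, 4.40, 3.89 and 4.02 in the wild type hearts. A single array, miR-100 overexpressing replicate 1, stood apart. Pf4, another platelet chemokine, was at 7.59 on that array and between 6.78 and 7.77 in the wild type hearts.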

How the results depend on the processing

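No member passed under any alternative run for members, with counts of 0 throughout, leaving out each array included (0 to 0), also at an adjusted p of 0.1 and with the brightest row per symbol. The signalling genes, for which those last 2 settings were not run, had counts of 0 under the others. The lowest limma adjusted p among the named members was 0.0533, for Ccl9 without wild type replicate 2. With rows above the 50th percentile of row means alone, 18 members were left, of which 2 had an unadjusted p under 0.05 and 1 did not overlap. Leaving out each array, those counts ran from 2 to 6 and from 2 to 6, and the median difference from -0.051 to -0.006. Deviations from the group mean correlated between -0.06 and 0.07 for same-numbered arrays of the 2 groups. For differently numbered arrays they correlated between -0.061 and 0.071. These values gave no sign of pairing by replicate number, but they cannot show whether same-numbered mice were related or handled together. With a replicate block the counts were 0 past the adjusted threshold, 4 at an unadjusted p under 0.05 and 2 without overlap. Shares of all rows were not counted for the rows above the 50th percentile or for the replicate block. Among the fits that left out 1 array, they were counted only without wild type replicate 2. Several differences near 0 changed sign: with array weights Ackr3 was at -0.004 and Ccl5 at 0.005, and with quantile normalization Ccl5 was at 0.009 and Cxcl5 at 0.011. The cause was not tested. Without single arrays, Ackr3 ran from -0.10 to 0.27, Ackr1 from -0.12 to 0.007, Ackr2 from -0.24 to 0.028, Ackr4 from -0.24 to 0.078, Ccl19 from -0.071 to 0.12, Ccl21a from -0.018 to 0.20, Ccl5 from -0.19 to 0.068, Ccr2 from -0.015 to 0.48, Cx3cr1 from -0.026 to 0.40, Cxcl12 from -0.099 to 0.014, Cxcl5 from -0.12 to 0.033, Cxcl9 from -0.29 to 0.16 and Cxcr6 from -0.045 to 0.20. Cxcl14, Ccl9, Ccl7, Cxcr2 and Cxcl1 kept their sign in all of these fits. The number of arrays limits what a count of 0 can show, and 43 of the 61 rows lay in the lower 50% of row means.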

Other observations

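Chemokines and chemokine-binding proteins whose symbols lie outside the family rule formed a list of 12 genes. Of these 11 had a row, 0 passed over all genes and 0 had an unadjusted p under 0.05 (limma), where 0.14% and 7.73% of all rows did, with differences from -0.07 to 0.86, the highest being Ppbp. Ccrl2, an atypical receptor that presents chemerin, differed by 0.11, Cmklr1, the chemerin receptor, by 0.04, and Mif, a cytokine that also binds chemokine receptors, by -0.05.

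Markers of the vessel and stromal cells that make Cxcl12 and Ccl21 showed no member past the adjusted threshold. The median difference was -0.04 over 7 endothelial rows, -0.03 over 5 lymphatic endothelial rows and 0.0 over 6 fibroblast rows. It was -0.04 over 6 pericyte rows, of which Kcnj8, a potassium channel subunit, was lower at an unadjusted p under 0.05 (-0.31, limma adjusted p = 0.609). The Kcnj8 groups did not overlap. All 7 dendritic cell rows had differences below 0, from -0.47 for Itgae, an integrin also found on T cells, to -0.005, with a median of -0.14. Of these rows 4 lay in the lowest 25% of row means. All 6 NK cell rows were below 0 as well, from -0.22 to -0.03, and so were 11790 of all 22206 rows.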
